A study of Mus musculus with 4 samples.

Results

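The genes described here are 8 members of the dual specificity phosphatase (Dusp) family, Dusp1, Dusp2, Dusp4, Dusp5, Dusp6, Dusp7, Dusp10 and Dusp11. They were taken by symbol from a table of 53715 mouse genes, all 8 were present, and all 8 passed the filter on low counts. The table holds RNA sequencing counts from invariant natural killer T (iNKT) cells of the mouse thymus, T cells with a semi-invariant receptor for lipids presented by CD1d. Viable cells positive for the CD1d tetramer and for TCRβ were sorted from mice aged 6 to 8 weeks, and Smart-seq2 libraries were prepared from their RNA. The 2 WT libraries came from C57BL/6 mice with the genotype label WT, and the 2 Mettl3KO libraries from mice labelled Mettl3fl/flCD4-cre on the same background. Whether the WT mice carried a floxed allele or Cre is not given in the sources used here. In the Mettl3KO mice Cre is driven by Cd4, which is active from the CD4+CD8+ thymocyte stage, so other T lineage cells of these mice carry the deletion too. METTL3 is the catalytic subunit of the enzyme that places N6-methyladenosine (m6A) on mRNA. The question put to the 8 genes is how their transcripts differ when this enzyme is targeted.

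MAP kinases are switched on when both a threonine and a tyrosine of their activation loop are phosphorylated, and the dual specificity phosphatases that act on them remove both phosphates. In T cells, receptor engagement activates RAS and the ERK kinases, and many of these phosphatases are themselves induced by that signal, so they act as negative feedback. Dusp1, Dusp2, Dusp4 and Dusp5 encode inducible nuclear enzymes, Dusp6 and Dusp7 encode cytosolic enzymes with a preference for ERK, and Dusp10 encodes an enzyme with a preference for JNK and p38. Dusp11 stands apart, since its product is an RNA phosphatase that trims the triphosphate from the 5′ end of RNA and is not a MAP kinase phosphatase, so the family name fits 7 of the 8 genes.

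Promoter sequence is shown for the 3 genes whose 95% interval for the genotype difference lay on 1 side of 0, namely Dusp1, Dusp7 and Dusp10. Each run covers 250 bases before to 50 bases after the transcript start in RefSeq, build GRCm38.p6, 5′ to 3′ on the strand of the gene. Capitals mark the cAMP response element TGACGTCA and its shorter form TGACG, searched on both strands, the shorter form being contained in the longer one. The Dusp1 promoter lies at chr17:26508423-26508722 on the minus strand and that of Dusp7 at chr9:106368382-106368681 on the plus strand. That of Dusp10 lies at chr1:184034131-184034430 on the plus strand. The Dusp1 and Dusp10 windows lie within the spans that GENCODE gives the genes. The Dusp1 span comes from another version of its gene ID than the counts carry.
Dusp1: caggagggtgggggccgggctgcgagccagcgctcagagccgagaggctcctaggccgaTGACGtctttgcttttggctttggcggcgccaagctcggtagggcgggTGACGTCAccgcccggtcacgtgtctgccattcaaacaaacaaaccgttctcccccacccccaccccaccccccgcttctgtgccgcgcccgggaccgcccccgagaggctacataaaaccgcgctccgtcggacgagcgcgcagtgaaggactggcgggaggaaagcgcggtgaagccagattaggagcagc
Dusp7: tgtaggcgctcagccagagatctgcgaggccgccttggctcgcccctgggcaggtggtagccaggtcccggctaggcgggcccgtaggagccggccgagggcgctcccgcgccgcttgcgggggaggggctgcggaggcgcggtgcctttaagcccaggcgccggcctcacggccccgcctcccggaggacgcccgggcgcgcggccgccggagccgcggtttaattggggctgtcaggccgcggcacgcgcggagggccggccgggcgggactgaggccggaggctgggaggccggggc
Dusp10: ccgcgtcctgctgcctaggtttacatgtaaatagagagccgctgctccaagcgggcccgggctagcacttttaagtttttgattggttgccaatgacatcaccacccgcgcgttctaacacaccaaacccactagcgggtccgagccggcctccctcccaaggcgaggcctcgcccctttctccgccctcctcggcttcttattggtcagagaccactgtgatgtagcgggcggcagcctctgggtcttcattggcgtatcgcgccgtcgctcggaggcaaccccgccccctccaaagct
The full element was found in Dusp1 alone among the 7 genes with a RefSeq promoter entry (Dusp4 is the other gene), starting 143 bases upstream of the transcript start, and in 1.79% of 32851 promoters of this length. The shorter form was found in 4 of the 7 genes (Dusp1, Dusp2, Dusp5 and Dusp11) and in 20.8% of all promoters. The CArG box, the site of serum response factor, was found in Dusp5 alone, with 2 matches starting 82 and 72 bases upstream, and in 1.63% of all promoters. The AP-1 site TGANTCA was found in 0 of the 7 windows and in 7.81% of all promoters. The E box CACGTG was found in 2 of the 7 (Dusp1 and Dusp2) and in 7.15% of all promoters. The TATA box TATAAA was found in 0 of the 7 and in 13.6% of all promoters. These are matches of letters, and occupancy of these sites was not measured.

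Because the METTL3 enzyme favours the letters GGACT in RNA, and m6A is known to be dense around stop codons, this motif was counted in the longest coding transcript of each gene (GENCODE M21, transcript strand only). The match nearest to the stop codon is shown for the 7 genes that hold one, with 10 bases on either side, the motif in capitals.
Dusp1: agaagagaaaGGACTctgtttgagg
Dusp4: ccagctgttaGGACTcgtctctgga
Dusp5: tgggctctcgGGACTgtatggaagg
Dusp6: tctaccaggtGGACTccctgcagtc
Dusp7: ggcagctgctGGACTttgagcggac
Dusp10: caagctcagtGGACTcggctcgcct
Dusp11: cgctgtggctGGACTgtcgtcaggg
In Dusp4 the first base of the match is the last base of the stop codon and the rest lies in the 3′ UTR. In Dusp6 it starts 19 bases before the stop codon and in Dusp7 121 bases before it. In Dusp11, Dusp5, Dusp1 and Dusp10 it lies in the 3′ UTR, 17, 197, 274 and 578 bases after the start of the stop codon. Dusp6 held 8 matches, or 2.86 per kb, above 97.4% of the 11701 tested genes with a coding transcript, whose median was 1.05 per kb. Dusp4 held 6 (2.19 per kb, above 91.6%), Dusp1 held 4 (2.01 per kb, above 88.8%) and Dusp11 held 9 (1.40 per kb, above 69.6%). Dusp7 held 4 (1.25 per kb, above 61.8%), Dusp10 held 3 (1.07 per kb, above 51.7%) and Dusp5 held 2 (0.809 per kb, above 35.2%). Dusp2 held 0, where 92.4% of these genes hold at least 1. The 8 genes thus span the range from none to near the top. Methylation was not measured in these libraries, so the matches describe sequence only.

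The libraries totalled 24374587 to 28316016 counts over genes. Mettl3 (ENSMUSG00000022160.18), the targeted gene, was at 92.2 and 124 CPM in WT and at 78.1 and 91.4 CPM in Mettl3KO (CPM, counts divided by the TMM-scaled size of the library and multiplied by 1000000), with log2 fold change -0.35 and SE 0.19 (edgeR adjusted p = 0.357). This did not pass the test. The counts are per gene and would include reads from any exon left in place. No count per exon was made, and the extent of the deletion was not tested. The 13 T cell and iNKT identity genes summed to 6655 to 6868 CPM in WT and 6742 to 6929 CPM in Mettl3KO, with Cd3e at 435, 515, 571 and 486 CPM in WT replicates 1 and 2 and Mettl3KO replicates 1 and 2. Of these 13, 2 rose and 1 fell, where 1.09% of all 14185 tested genes were higher and 1.51% lower (edgeR adjusted p under 0.05). Trac, the constant region gene of the T cell receptor α chain, fell from 2292 and 2510 CPM to 1612 and 1600.5 CPM (edgeR adjusted p = 0.0124). Cd5, an inhibitory surface receptor gene, rose from 489 and 583 CPM to 879.99 and 830.06 CPM (0.0275), and Slamf6, a receptor gene of the SLAM family, from 438 and 332 CPM to 643 and 696 CPM (0.0358). The sums of the 13 genes thus hold differences in both directions, with 8 log2 fold changes above 0 and 5 below. Markers of other cells or subsets also differed between the genotypes. Of 15 NKT1 markers, genes of the interferon-γ-producing subset, 14 fell, with sums of 5320 and 6916 CPM in WT against 2681 and 2620 CPM in Mettl3KO, and of 10 markers of immature iNKT cells 5 rose. Of 13 tested myeloid and dendritic cell markers (15 listed) 5 rose and 1 fell, with sums of 153 and 175 CPM in WT against 561 and 613 CPM in Mettl3KO, and of 7 MHC class II genes 5 rose, with sums of 142 and 269 CPM against 2193 and 2317 CPM. Among the myeloid genes Csf1r, Cd209a, Itgax and Adgre1 were at 0 in 1 library each and Itgam in 2. The B cell factor Pax5 was at 0 in all 4 libraries. Of 10 markers of CD4+CD8+ thymocytes edgeR called 0, while 9 log2 fold changes were above 0 and 1 below. Their sums were 846 and 979 CPM in WT against 1369 and 1262 CPM in Mettl3KO. DESeq2 called 5 of these 10 higher and 0 lower, against 9.4% of all tested genes in either direction. The part of these shifts in the values below was not tested. In bulk RNA, fewer cells of a type and less RNA per cell cannot be told apart.

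Dusp1 fell in Mettl3KO cells, to 0.555 of its WT level, and was the 1 gene of the 8 that passed the test, so that 12.5% of the 8 were called against 2.59% of all 14185 tested genes (edgeR adjusted p under 0.05, either direction). The other 7 genes did not pass. In the observed values Dusp7 was also lower by 1.81-fold and Dusp10 and Dusp6 higher by 1.55-fold and 1.68-fold, while Dusp11 was within 1.09-fold. By non-overlap of the libraries, 3 genes were higher in both Mettl3KO libraries than in either WT library (Dusp4, Dusp6 and Dusp10), 4 were lower in both (Dusp1, Dusp5, Dusp7 and Dusp11), and Dusp2 overlapped. Among all tested genes 50.3% showed such separation, 25.4% higher and 24.9% lower. The median log2 fold change of the 8 genes was -0.21, against 0.02 over all tested genes. Higher in Mettl3KO were 0 genes by edgeR, 1 at an unadjusted p under 0.05 (Dusp10), 1 by DESeq2 (Dusp10) and 0 by limma voom. Lower were 1 by edgeR, 2 at an unadjusted p under 0.05 (Dusp1 and Dusp7), 2 by DESeq2 (the same genes) and 1 by limma voom (Dusp1). Of all tested genes, in either direction, 20.2% had an unadjusted p under 0.05, 9.4% were called by DESeq2 and 1.99% by limma voom.

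**Figure D1:**
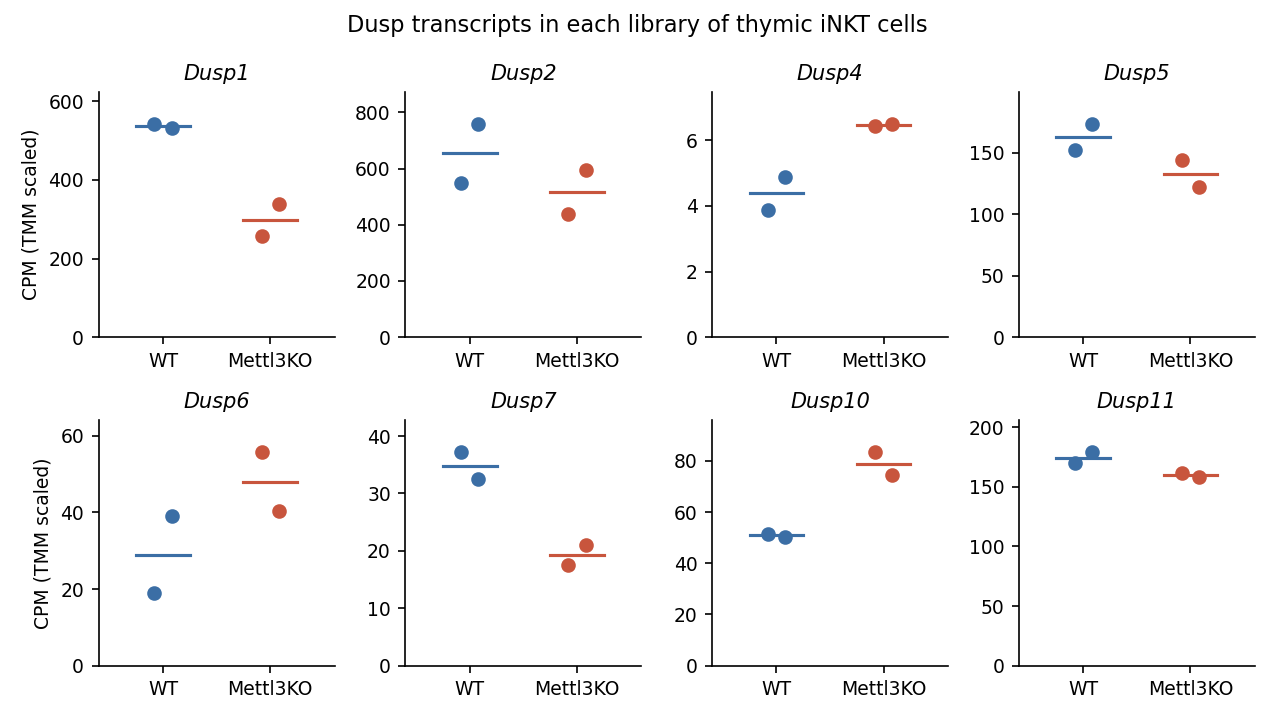
CPM after TMM scaling of each of the 8 Dusp genes (vertical axes start at 0 and differ between panels) in 2 WT and 2 Mettl3KO libraries. Points are libraries and horizontal lines are group means. Dusp1 lies near 538 CPM in WT and 298 CPM in Mettl3KO, and Dusp2 is the gene whose groups overlap.

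Among the nuclear inducible phosphatases, Dusp1 (ENSMUSG00000024190.6, protein coding) is the classical immediate early member, acting on p38, JNK and ERK. It was at 542 and 533 CPM in WT replicates 1 and 2 and at 258 and 338 CPM in Mettl3KO replicates 1 and 2. Both Mettl3KO libraries lay below both WT libraries, and the gap between the groups exceeded the spread within either. The means were 538 ± 6.62 and 298 ± 56.5 CPM (SD, n = 2), a log2 fold change of -0.85 (SE 0.14, 95% interval -1.17 to -0.53, edgeR adjusted p = 0.0279). The fall was called with the 4 libraries together and not with any 3 of them: leaving out WT replicate 1 gave -0.85 (edgeR adjusted p = 0.101), leaving out WT replicate 2 gave -0.87 (0.119), leaving out Mettl3KO replicate 1 gave -0.67 (0.141) and leaving out Mettl3KO replicate 2 gave -1.06 (0.0527). With 4 libraries, DESeq2 (adjusted p = 6.87e-07) and limma voom (adjusted p = 0.0247) also called it.

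Dusp2 (ENSMUSG00000027368.6; GRCm38 chromosome 2, 127336159 to 127338376), a nuclear phosphatase of activated lymphocytes, was at 549 and 759 CPM in WT and at 439 and 594 CPM in Mettl3KO. Mettl3KO replicate 2 lay above WT replicate 1, so the groups overlapped, and the log2 fold change of -0.34 (95% interval -0.78 to 0.10, edgeR adjusted p = 0.364) did not pass. Leaving out WT replicate 2 or Mettl3KO replicate 1 brought it to -0.09 and -0.14, and leaving out WT replicate 1 or Mettl3KO replicate 2 to -0.57 and -0.58. Dusp5 (ENSMUSG00000034765.6; chromosome 19, 53529109 to 53542431), which encodes a nuclear phosphatase of ERK, was at 152 and 174 CPM in WT and at 144 and 122 CPM in Mettl3KO. Its groups were separated by a gap smaller than the spread within either, and the log2 fold change was -0.29 (95% interval -0.63 to 0.05, edgeR adjusted p = 0.317). The annotated exons of Dusp5 share 547 bases with a gene on the opposite strand, AC137853.2, and these libraries do not mark strand. Dusp4 (ENSMUSG00000031530.6; chromosome 8, 34807297 to 34819894), a nuclear relative of Dusp1, had the fewest counts of the 8, at 109 to 166 per library. It was at 3.88 and 4.90 CPM in WT and at 6.45 and 6.50 CPM in Mettl3KO, with a log2 fold change of 0.57 (95% interval -0.48 to 1.62, edgeR adjusted p = 0.540). Its interval runs from a fall of 1.40-fold to a rise of 3.08-fold.

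The cytosolic ERK phosphatases had opposite signs. Dusp6 (ENSMUSG00000019960.8; chromosome 10, 99263231 to 99267489), a feedback inhibitor that follows ERK activity, was at 18.9 and 39.0 CPM in WT and at 55.7 and 40.5 CPM in Mettl3KO. WT replicate 2 lay just under Mettl3KO replicate 2 and far above WT replicate 1, and the log2 fold change of 0.75 (95% interval -0.05 to 1.55, edgeR adjusted p = 0.276) did not pass. It came to 0.29 when WT replicate 1 was left out, to 1.34 when WT replicate 2 was, and to 0.49 when Mettl3KO replicate 1 was. Dusp7 (ENSMUSG00000053716.9; chromosome 9, 106368632 to 106375724), the closest relative of Dusp6, was at 37.1 and 32.5 CPM in WT and at 17.6 and 20.98 CPM in Mettl3KO. Both Mettl3KO libraries lay clearly below both WT libraries. The log2 fold change, -0.86 with SE 0.24 and a 95% interval of -1.42 to -0.30, was close to that of Dusp1, at a lower depth of 452 to 1044 counts. It had an edgeR adjusted p of 0.112, and passed with DESeq2 (adjusted p = 0.0435) but not with edgeR or limma voom. The ratio of Dusp6 to Dusp7 per kb of exon was 0.546 and 1.29 in WT and 3.40 and 2.07 in Mettl3KO. This ratio was chosen after the values were seen, and with 2 libraries against 2 the smallest p that a two-sided exact permutation test can give is 0.333.

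Dusp10 (ENSMUSG00000039384.8; chromosome 1, 184013302 to 184075636), the phosphatase of JNK and p38, was at 51.5 and 50.4 CPM in WT and at 83.3 and 74.4 CPM in Mettl3KO. Both Mettl3KO libraries exceeded both WT libraries, and the WT pair differed by only 1.02-fold. The log2 fold change, 0.63 with SE 0.17 and a 95% interval of 0.24 to 1.02, had an edgeR adjusted p of 0.0977. It passed with DESeq2 (adjusted p = 0.0160) but not with edgeR or limma voom. With 1 library left out, the value was between 0.54 and 0.70.

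Dusp11 (ENSMUSG00000030002.15; chromosome 6, 85942268 to 85961667, minus strand), the RNA phosphatase, had the smallest difference of the 8. It was at 170.05 and 179 CPM in WT and at 162 and 158 CPM in Mettl3KO, with a log2 fold change of -0.12 (95% interval -0.40 to 0.15, edgeR adjusted p = 0.624). The libraries did not overlap, but the interval includes 0 and runs from a fall of 1.32-fold to a rise of 1.11-fold. Among 13 genes of RNA 5′ end processing and triphosphate sensing, 1 fell and 0 rose by edgeR (at an unadjusted p under 0.05, 3 lower and 1 higher; 2 lower and 0 higher by DESeq2; 1 lower and 0 higher by limma voom), and the median log2 fold change was -0.09. The gene that fell was Ddx58, which encodes RIG-I, the sensor of RNA with a 5′ triphosphate, from 219 and 233 CPM to 125 and 116 CPM, a log2 fold change of -0.91 (edgeR adjusted p = 0.0145). It kept its call without WT replicate 1 but had adjusted p = 0.0799 without WT replicate 2, 0.112 without Mettl3KO replicate 1 and 0.146 without Mettl3KO replicate 2. Ifih1, which encodes the related sensor MDA5, was at 86.4 and 81.8 CPM in WT and 54.5 and 57.4 CPM in Mettl3KO (edgeR adjusted p = 0.101).

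**Figure D2:**
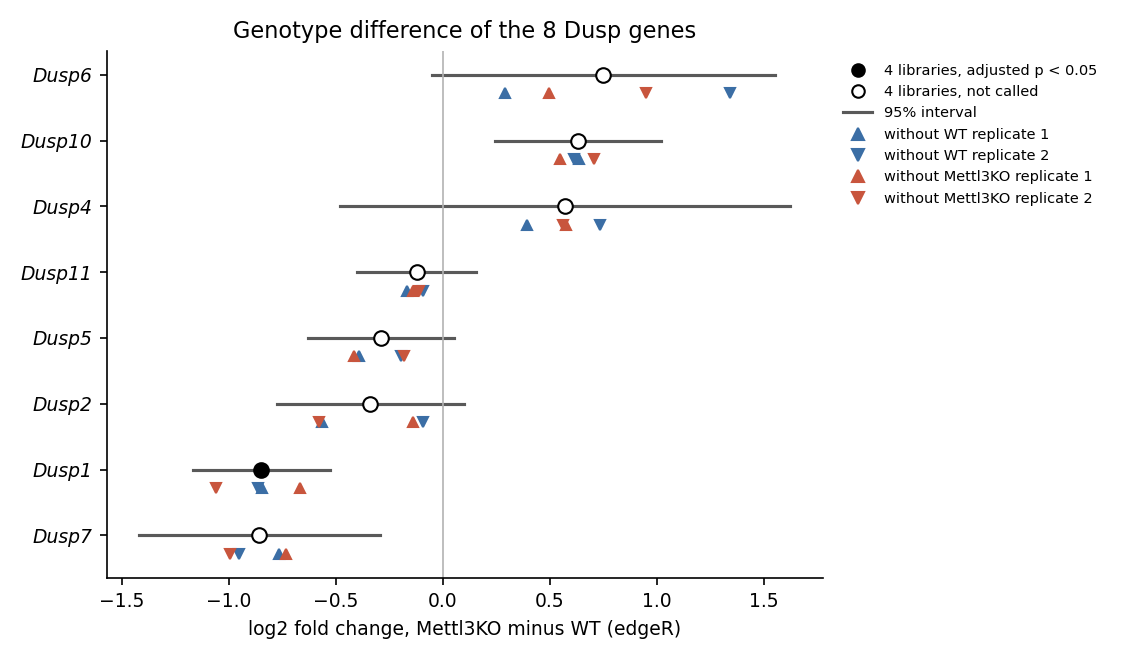
Log2 fold change (Mettl3KO minus WT, edgeR) of the 8 Dusp genes with 95% intervals from 4 libraries, and below each the value without 1 library (triangles, colour and direction as in the key). The filled circle, Dusp1 at -0.85, is the gene that passed the test; the intervals of Dusp1, Dusp7 and Dusp10 do not include 0.

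Levels can be compared between genes only per length, and for this CPM was divided by the kilobases of annotated exon. In WT the order was Dusp2 (274 and 379 CPM per kb), Dusp1 (164 and 161), Dusp5 (61.6 and 70.2), Dusp11 (19.4 and 20.4), Dusp10 (16.9 and 16.6), Dusp7 (11.1 and 9.68), Dusp6 (6.04 and 12.5) and Dusp4 (1.41 and 1.79). Only Dusp7 and Dusp6 had overlapping libraries among neighbours in that order. In Mettl3KO the order was Dusp2 (219 and 296 CPM per kb), Dusp1 (78.1 and 102), Dusp5 (58.3 and 49.4), Dusp10 (27.4 and 24.5), Dusp11 (18.5 and 18.1), Dusp6 (17.8 and 12.9), Dusp7 (5.23 and 6.25) and Dusp4 (2.35 and 2.37), with no overlap between neighbours. Dusp10 and Dusp11 thus exchanged places, as did Dusp6 and Dusp7. Dusp1 and Dusp2 together made up 79.0% and 80.5% of the summed level per kb of the 8 genes in WT, and 69.7% and 77.8% in Mettl3KO. The exon length of Dusp11 (8.754 kb) includes retained introns, and that of Dusp1 comes from another version of its gene ID than the table's. With the longest coding transcript as length, each genotype kept its own order given above.

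**Figure D3:**
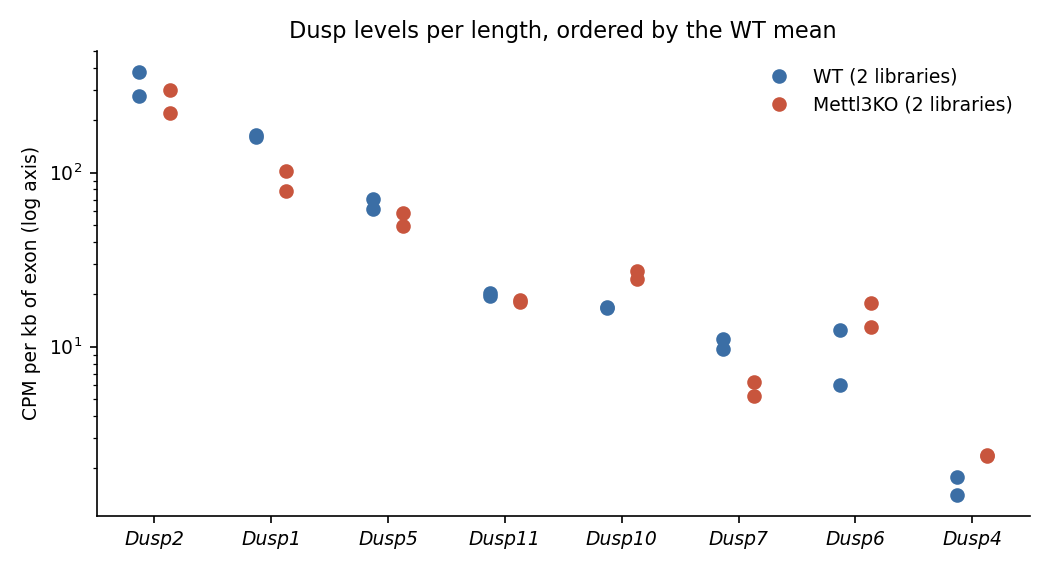
Level of each Dusp gene per kb of annotated exon (log axis) in 2 WT and 2 Mettl3KO libraries, each point a library, genes ordered by the WT mean. Dusp2 and Dusp1 stand highest and Dusp4 lowest in both genotypes, and in Mettl3KO Dusp10 and Dusp6 lie above Dusp11 and Dusp7.

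Among 8299 other genes averaging 10 CPM or more, the 3 whose centred log2 CPM over the 4 libraries lay nearest to that of Dusp1 were Zfp626 (Euclidean distance 0.09995), Ms4a4b (0.101) and Tmem41b (0.126), where the median gene lay at 0.966. Ms4a4b, a membrane protein gene of T cells, was at 860.1 and 929 CPM in WT and at 441 and 563 CPM in Mettl3KO. Over 4 libraries this describes likeness of profile only.

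Of 20 further DUSP family members, 12 were tested and 0 passed edgeR in either direction. At an unadjusted p under 0.05, 1 was higher and 1 lower, as by DESeq2, and limma voom called 0. The median log2 fold change was 0.17. Ssh2, which encodes a slingshot phosphatase that activates cofilin, was at 209 and 326 CPM in WT and at 134 and 126 CPM in Mettl3KO. Its log2 fold change was -1.03 (edgeR adjusted p = 0.0523). Ssh2 passed in a minority of the alternative fits, DESeq2 among them (adjusted p = 6.24e-05). Dusp9, a cytosolic ERK phosphatase, had no count in either WT library and 86 and 64 counts in Mettl3KO replicates 1 and 2. Its Mettl3KO mean of 2.96 CPM was 26.1 times an assumed WT floor of 3 counts per library. That ratio carries no error and is not a lower bound. Dusp9 did not pass the edgeR test (adjusted p = 0.0918) but passed with DESeq2 (adjusted p = 0.000289).

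The counts of the pathway lists stand beside the shares of all tested genes given above, in either direction 2.59% by edgeR, 20.2% at an unadjusted p under 0.05, 9.4% by DESeq2 and 1.99% by limma voom. Upstream of the phosphatases, most kinases did not pass the test. Of 12 tested MAP kinases 1 rose and 0 fell (3 higher and 3 lower at an unadjusted p under 0.05; 1 higher and 0 lower by DESeq2 and by limma voom), with a median log2 fold change of -0.25. The gene that rose was Mapk7, which encodes ERK5, from 16.1 and 21.7 CPM in WT to 50.8 and 52.9 CPM in Mettl3KO, with log2 fold change 1.46 and SE 0.23 (edgeR adjusted p = 0.0269). No fit on 3 libraries called it, with adjusted p = 0.104 and 0.0799 when WT replicate 1 or 2 was left out and 0.137 and 0.152 when Mettl3KO replicate 1 or 2 was. Mapk12, which encodes a p38 kinase, was at 1.74 and 1.43 CPM in WT and 4.78 and 7.58 CPM in Mettl3KO (edgeR adjusted p = 0.135). Of 24 MAP kinase kinases and kinases that activate them, 0 passed edgeR (3 higher and 5 lower at an unadjusted p under 0.05, 2 and 2 by DESeq2, 0 by limma voom), with a median of -0.09. Map3k11, a kinase of the JNK branch, was at 152 and 186 CPM in WT and 259 and 271 CPM in Mettl3KO (edgeR adjusted p = 0.0534), and passed with total-count scaling (0.0390) and with DESeq2 (0.000447). Ksr2, a scaffold of the RAF to ERK cascade, was at 0 and 0.478 CPM in WT and 4.86 and 5.34 CPM in Mettl3KO (edgeR adjusted p = 0.0529). Of 18 tested genes of RAS activation below the T cell receptor 0 passed edgeR (4 higher and 2 lower at an unadjusted p under 0.05, 4 and 0 by DESeq2, 0 by limma voom), with a median of -0.21. Rasa1, a GTPase-activating protein gene that turns RAS off, was at 246 and 202 CPM in WT and 333 and 364 CPM in Mettl3KO (edgeR adjusted p = 0.0527), and the adaptor gene Lat at 453 and 474 CPM and 594 and 613 CPM (0.0743). Map3k11, Ksr2, Rasa1 and Lat each passed in a minority of the alternative fits.

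Other feedback inhibitors of ERK did not pass either. Of 10 tested, 0 were called by edgeR or limma voom, while 2 were higher at an unadjusted p under 0.05 and by DESeq2, and the median log2 fold change was -0.10. These were Spry1, a sprouty gene, at 14.7 and 10.5 CPM in WT and 22.8 and 34.0 CPM in Mettl3KO (edgeR adjusted p = 0.112), and Spred1, a sprouty-related gene, at 9.21 and 10.3 CPM in WT and 17.6 and 28.1 CPM in Mettl3KO (0.115). Of 13 tested phosphatases of other classes that act on MAP kinases or their upstream kinases, 1 fell and 0 rose by edgeR (5 lower and 0 higher at an unadjusted p under 0.05, 3 and 0 by DESeq2, 1 and 0 by limma voom), with a median of -0.19. Ptpn6, which encodes the tyrosine phosphatase SHP-1, fell from 999 and 1143 CPM to 749 and 776 CPM, a log2 fold change of -0.49 (edgeR adjusted p = 0.0463). It did not pass without WT replicate 2 (0.119), Mettl3KO replicate 1 (0.243) or Mettl3KO replicate 2 (0.219), nor with RLE scaling (0.0503) or without the filter on low counts (0.0628). Ptpn22, a phosphatase gene of T cell receptor signalling, was at 499 and 620.01 CPM in WT and 362 and 385 CPM in Mettl3KO (edgeR adjusted p = 0.0589). Ptpn22 passed in a minority of the alternative fits.

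Downstream, 0 of 21 tested MAP kinase substrates and scaffolds passed edgeR (1 higher and 3 lower at an unadjusted p under 0.05, 0 and 1 by DESeq2, 0 by limma voom), with a median of -0.05. Mapkapk2, a kinase activated by p38, was at 35.9 and 45.1 CPM in WT and 21.5 and 23.7 CPM in Mettl3KO (edgeR adjusted p = 0.112), and its relative Mapkapk3 at 185 and 228 CPM and 157 and 159 CPM (0.181). The list named for immediate early genes of receptor signalling, the class to which Dusp1 belongs, had the most calls of these lists. Of its 30 genes edgeR called 4 lower and 1 higher, or 16.7% against 2.59% of all tested genes, with a median of -0.16. At an unadjusted p under 0.05, 8 were lower and 6 higher, with 8 and 3 by DESeq2 and 3 and 1 by limma voom. Whether the receptor induces each member in these cells, Klf2 and Btg1 among them, was not tested. Rgs1 and Rgs2, regulators of G protein signalling, fell from 371 and 494 CPM to 95.7 and 88.8 CPM and from 397 and 437 CPM to 176 and 149 CPM (edgeR adjusted p = 0.00214 and 0.00431), and passed whichever library was left out. Ier2 and Junb also fell, by 0.47 and 0.61 in log2 units, at edgeR adjusted p = 0.0463 and 0.0475. Egr1, a transcription factor gene induced through ERK, rose from 275 and 278 CPM to 540.5 and 468 CPM, a log2 fold change of 0.87 (edgeR adjusted p = 0.0119), so Egr1 and Dusp1 differed in sign. Every fit on 3 libraries lost Ier2 and Egr1: leaving out WT replicate 1 gave adjusted p = 0.0724 and 0.0581, WT replicate 2 0.126 and 0.0706, Mettl3KO replicate 1 0.227 and 0.113, and Mettl3KO replicate 2 0.275 and 0.0601. Junb kept it only without WT replicate 2, with 0.0800 without WT replicate 1, 0.222 without Mettl3KO replicate 1 and 0.230 without Mettl3KO replicate 2. With 4 libraries Ier2 and Junb also missed the threshold with total-count scaling (0.0541 and 0.0619) and without the filter on low counts (0.0620 and 0.0637), and Junb with upper quartile scaling (0.0552) and limma voom (0.0529). Of 13 tested heat shock and dissociation genes, a class that handling of cells can induce, 0 passed edgeR or limma voom (1 higher and 0 lower at an unadjusted p under 0.05 and by DESeq2), and the median was -0.06. That list holds none of the immediate early genes above, and an effect of handling was not tested. Hspa5, a chaperone gene of the endoplasmic reticulum, was at 806 and 933 CPM in WT and 1109 and 1084 CPM in Mettl3KO (edgeR adjusted p = 0.114), and Hspe1, a mitochondrial chaperonin gene, at 55.1 and 48.7 CPM and 39.4 and 37.4 CPM (0.252).

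**Figure D4:**
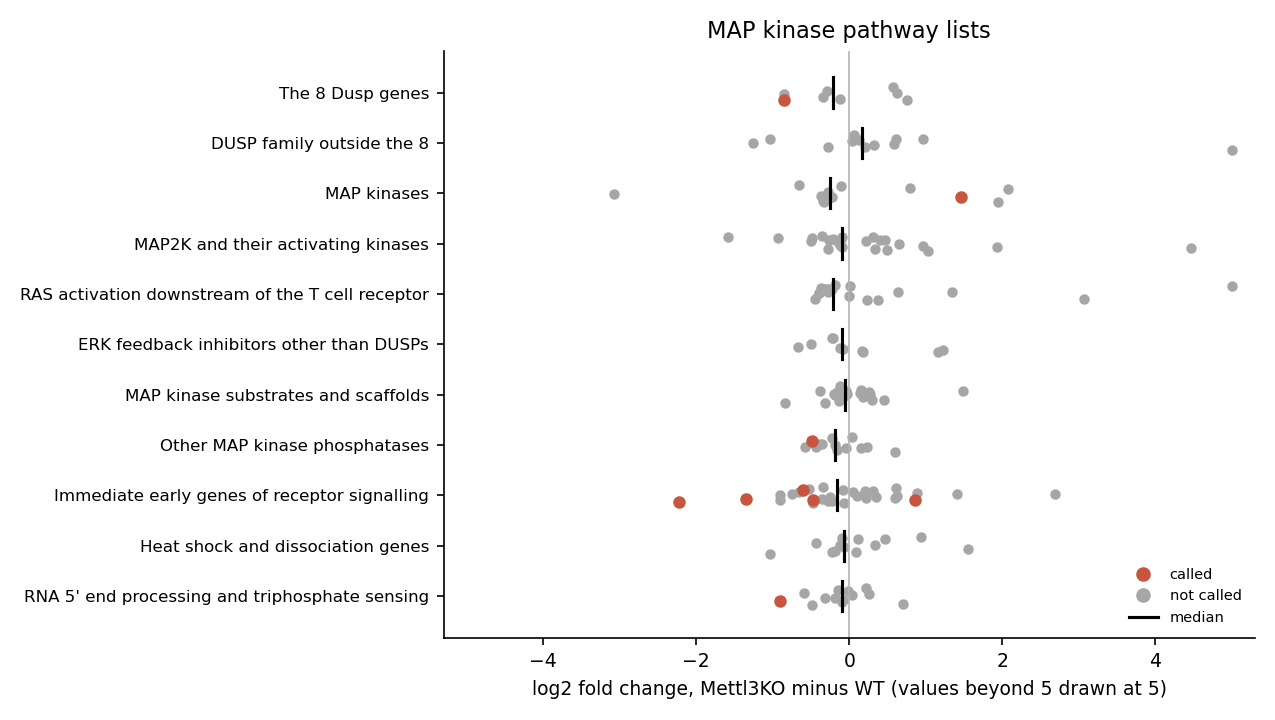
Log2 fold change (Mettl3KO minus WT, edgeR) of every tested gene in the 8 Dusp genes and in 10 lists of the MAP kinase pathway and related processes. Points are genes, coloured where called, black bars are list medians, and 2 genes beyond 5 (Dusp9 and Rasgrp3, with no WT counts) are drawn at 5. Called genes are few outside the immediate early list, where 5 of 30 are coloured.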

How the data were processed

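The authors deposited raw read counts per gene, 1 column for each of the 4 libraries and no pooled replicates. The submitters' processing notes name HTSeq 0.6.1, STAR 2.6.0a, DESeq2 1.18.1 and FastQC 0.11.5 and build mm10, without saying what each did. Annotation release, strand setting and filters: not given in the sources used here. The libraries were Smart-seq2, per the labels' protocols.

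IDs were named from GENCODE M21 (GRCm38), in which 53620 of 53715 matched without version; coordinates are printed only where the version matched, as for 7 of the 8 genes. Genes were kept by filterByExpr, scaled by TMM and compared in R 4.3.3 with edgeR 4.0.16 (glmQLFit, glmQLFTest, robust, legacy=FALSE) on 4 libraries without covariates, two-sided, with Benjamini-Hochberg adjustment over all tested genes and a threshold of 0.05. SE is the log2 fold change over the square root of F. DESeq2 1.42.0, limma 3.58.1 voom, other scalings and filters, the replicate block and leaving out each library were alternatives. A library lone in its genotype was assumed to vary like the others. Scripts were tested on simulated counts.

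The 8 genes, the lists and the naming rule were chosen with earlier results of these data known. The rule takes the 8 genes, Mettl3, up to 6 called genes per list (at least the 2 with the smallest p) and the 3 nearest profiles of a called Dusp gene. Marker lists for CD4+CD8+ thymocytes (0 of 10 called), B cells (0 of 8) and thymic stroma (0 of 6) were also fixed. At an unadjusted p under 0.05 these gave 5 higher and 1 lower, 2 and 1, and 3 and 1. DESeq2 called 5, 0 and 2 of them, all higher, and limma voom 0. Separate animals are not stated in the labels, so the p-values rest on the spread between the libraries, and that spread may be technical. Libraries of a genotype differed beyond counting noise (chi-square per degree of freedom 34.3 in WT, 22.3 in Mettl3KO) and were kept as replicates.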

Additional observations from a re-analysis of the deposited data

How the results depend on the processing

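None of the 8 Dusp genes changed the sign of its log2 fold change under any of the 12 alternatives tried. The number called lower was 1, and it was 0 with the replicate block, 0 to 0 with 1 library left out and 2 with DESeq2. The number called higher was 0, and it was 1 with DESeq2. Over all genes, 154 were called higher and 214 lower. These counts were 335 and 392 when 5 CPM in 2 libraries was required, 662 and 671 with DESeq2, and 7 and 26 with the replicate block. Without a filter on low counts 93 were higher. With 1 library left out they ran from 13 to 40 higher and from 26 to 132 lower. The block rests on replicate numbers that pair nothing in the labels, and same-numbered libraries did not deviate together (Pearson's r = -0.0125 over 14185 genes). In that fit Dusp1 had adjusted p = 0.113, Rgs1 passed, and Rgs2 (0.0609), Egr1 (0.0847), Ddx58 (0.0988), Mapk7 (0.105), Ptpn6 (0.136), Junb (0.143) and Ier2 (0.153) did not.

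Some list medians near 0 changed sign. That of RAS activation ran from -0.24 to 0.0549 with 1 library left out, the latter without WT replicate 1. That of MAP kinase substrates was 0.000515 with total-count scaling, and with 1 library left out ran from -0.10 to 0.19, above 0 without WT replicate 2 and, at 0.0611, without Mettl3KO replicate 1. That of heat shock genes was 0.00738 without a filter, 0.0479 with limma voom and 0.02235 with the replicate block, and with 1 library left out ran from -0.24 to 0.36, above 0 without WT replicate 2 and, at 0.0391, without Mettl3KO replicate 2. The cause was not tested. Total-count scaling moved the median of all genes from 0.02 to 0.07. The order of the 8 genes per length was the same with either gene length, a choice added after seeing the data. With 2 libraries per genotype, intervals for the shallowest gene, Dusp4, span more than 2 log2 units.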

Other observations

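The paired scaffolds of the RAF to ERK cascade, Ksr1 and Ksr2, had opposite signs, as Dusp6 and Dusp7 did. Ksr1 was at 12.8 and 15.1 CPM in WT and at 4.28 and 4.98 CPM in Mettl3KO (edgeR adjusted p = 0.0820), and Ksr2 at 0 and 0.478 CPM against 4.86 and 5.34 CPM (0.0529). Neither passed the test, though Ksr2 passed in a minority of the alternative fits. Ksr1 was named after its values were seen. Among the remaining classical MAP kinase phosphatases, also named after their values were seen, Dusp8 was at 0 in both WT libraries and at 2.53 and 0.0401 CPM in Mettl3KO, and was not tested. Dusp16, a phosphatase of JNK, was at 3.81 and 7.56 CPM in WT and at 0.972 and 3.73 CPM in Mettl3KO (edgeR adjusted p = 0.375). The activation marker Cd69, also named after its value was seen, was at 130 and 159 CPM in WT and at 66.8 and 86.7 CPM in Mettl3KO (edgeR adjusted p = 0.0512).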
